A study of Equus caballus with 68 samples.

Results

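The first 48 h in inflamed fluid were followed by comparing bone marrow mononuclear cells (BMNC) before culture with the same horses' BMNC after 48 h in inflamed synovial fluid (ISF). The members are the 7 libraries of the ISF culture at 48 h and the 8 libraries of uncultured BMNC at 0 h, which together make 15 of the 68 libraries of the series. Horses pair the 2 groups by name. Catnip, Dealings, Dreamer, Flash, Lurie, Ollie and RimRun have both libraries, and Moon has a library at 0 h but none here of ISF at 48 h. All were Thoroughbreds of 3 to 9 years, geldings or mares. BMNC were separated from sternal marrow on a density gradient. The 0 h cells were never cultured, and the 48 h cells stood in undiluted, cell-free fluid of their own horse, with 1 well sequenced per horse. ISF was drawn during a synovitis caused by injecting lipopolysaccharide (LPS), a bacterial cell wall component, into the radiocarpal joints. Normal synovial fluid (SF) of healthy joints of the same horses served for the parallel culture. Cultured cells were recovered from the plate with EDTA, a step that the 0 h cells did not undergo. Time in culture, contact with plastic, recovery and the fluid all change together between 0 and 48 h and cannot be told apart in this comparison. A comparison with the SF culture at 48 h bears on the fluid and is given after the changes over time.

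Bone marrow mononuclear cells are a mixture of blood cell precursors, with erythroid and granulocyte precursors, monocytes, lymphocytes and few stem cells. In culture, monocytes and their precursors attach and mature into macrophages, the phagocytes that engulf dead cells, digest them in acid lysosomes, store or export the lipid and iron gained, and recruit other leukocytes with chemokines. In joints, synovial macrophages take part both in inflammation and in its resolution.

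Levels are given as GeTMM, a read count divided by gene length and scaled between libraries, so levels of different genes can be compared. The reads on genes recovered from the table (in units of 1000000 reads) were 17.5 to 30.95 per library at 0 h and 19.06 to 26.3 in ISF at 48 h, and 1 read on a gene of 1 kilobase was worth 0.0417 to 0.0792 GeTMM in these libraries. In a check on 200 genes that differ between horses, each of the 22 libraries at 0 h and at 48 h in either fluid lay closest to the mean of its own horse's other libraries. A pair of libraries stood apart. The 0 h library of Ollie had the largest sum of GeTMM (1458340, against 998292 to 1150750 in the other 7), and the ISF library of RimRun lay at a root mean square (RMS) distance of 0.592 from the mean of the other ISF libraries, against 0.348 to 0.437 for the rest, on the log2(GeTMM + 1) scale used throughout. Cell type markers differed between the 2 groups. The summed level of the 18 erythroid markers took 0.205% to 3.41% of the total at 0 h and 0.0199% to 0.0696% at 48 h. That of the 15 macrophage markers took 0.0347% to 0.0850% and then 1.98% to 3.35%, and SPP1 alone held a mean of 1.59% at 48 h. These are bulk libraries, in which fewer cells of a type and less RNA per cell cannot be told apart.

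Most genes measured were called different by 48 h. Of 14570 genes tested, 7675 (52.7%) were called at a Benjamini-Hochberg false discovery rate (FDR) under 0.05 in the limma fit, 3686 higher (25.3%) and 3989 lower (27.4%) at 48 h in ISF. All 7 horses moved in the called direction for 2861 of the higher and 2998 of the lower genes. Large changes were common. Among called genes, 1260 rose and 1502 fell by at least 1 on the log2 scale, and 54 rose and 44 fell by at least 4. Abundant genes were called more often than rare ones. The called share was 39.4% of the genes whose higher group mean was under 5 GeTMM, 55.5% from 5 to 50, 64.9% from 50 to 500 and 65.6% of the 384 genes at or above 500. The split between higher and lower depended on scaling. The median log2 fold change over all genes was -0.028, and it became 0.153 when each library was rescaled to the same sum, with 4948 genes then called higher and 2578 lower. Reads recovered from the table and fitted with voom gave 4354 higher and 2888 lower. Small changes thus took their direction from the scaling, and directions are given below on the authors' scaling. The counts of each gene list below stand against these shares of all genes, 25.3% higher and 27.4% lower.

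**Figure D1:**
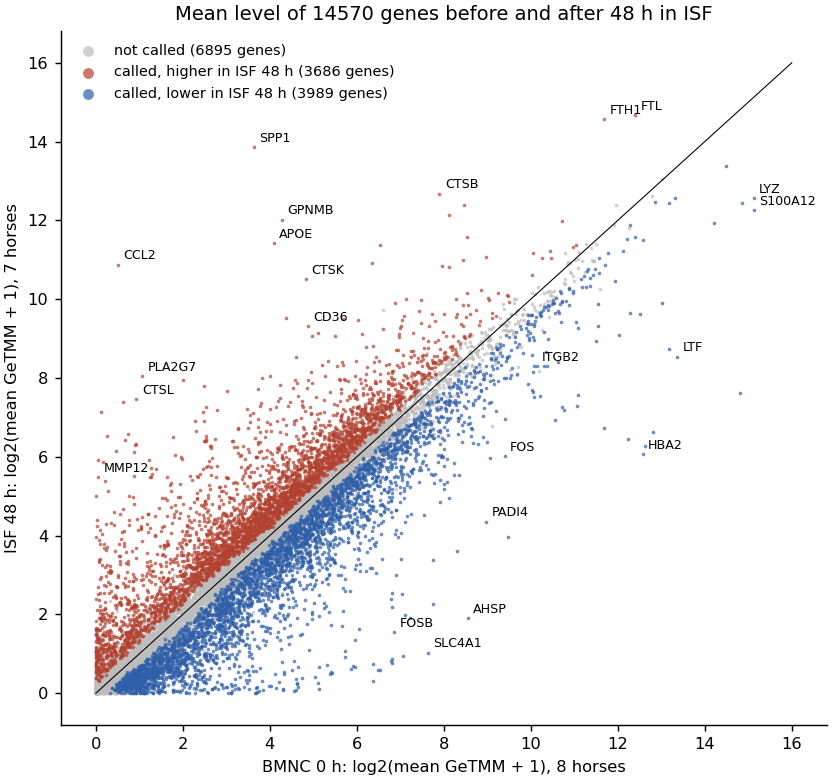
Mean level of each of the 14570 tested genes in uncultured BMNC (horizontal axis, 8 horses) and after 48 h in ISF (vertical axis, 7 horses), both as log2(mean GeTMM + 1), with genes called higher in red, called lower in blue and not called in grey. Points on the diagonal have equal means. SPP1, CCL2, GPNMB and APOE lie far above it, haemoglobin and other red cell genes far below it, and the 2 ferritin genes FTL and FTH1 are the highest points at 48 h.

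The most abundant transcripts changed in part, and some, LYZ among them, were among the most abundant at both times. At 0 h, the genes with a symbol and the highest levels mostly encode phagocyte granule and calcium-binding proteins. S100A12, a calcium-binding alarmin of granulocytes and monocytes, stood at 35999 ± 13549 GeTMM (mean ± SD, n = 8) and LYZ, which encodes lysozyme, at 35704 ± 8983. After 48 h the highest were the ferritin chains that store iron and osteopontin, a secreted phosphoprotein. FTL had a lowest, median and highest level of 4663, 5263 and 6622 GeTMM at 0 h and 19589, 25552 and 37348 at 48 h (log2 fold change 2.25, SE 0.22, FDR 2.56e-13). FTH1 went from 2483, 2978 and 4813 to 17379, 21638 and 40233 (log2 fold change 2.85, SE 0.24, FDR 4.84e-16). For both genes every ISF library lay above every 0 h library. As a share of all GeTMM, FTL rose from 0.487% to 2.82%, FTH1 from 0.299% to 2.59%, SPP1 from 0.00101% to 1.59% and CTSB from 0.0216% to 0.705% of the mean total, while S100A12 went from 3.12% to 0.532%, LYZ from 3.14% to 0.653% and LTF from 0.941% to 0.04001%. Some of the most abundant entries carry no symbol in the table and were picked here after their values were seen. Among them ENSECAG00000024790 rose from a mean of 350 to 5380 GeTMM and ENSECAG00000039088 from 275 to 4472, and ENSECAG00000010020 fell from 28514 to 197 and ENSECAG00000010598 from 29847 to 5580.3, the last with an FDR of 0.0772 without Ollie. The share held by the 100 most abundant genes of a library fell by 9.10 ± 4.79 percentage points, and in every horse (exact sign-flip permutation test, n = 7 horses, two-sided p = 0.016, the smallest that 7 horses allow, adjusted p = 0.0208). The number of genes at 1 GeTMM or more fell by 355 ± 227 in the same test, with the same p values, but with libraries rescaled to the same sum it fell by 66.9 with an adjusted p of 0.719.

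SPP1 and CCL2 had the largest rises of the named genes. SPP1, the gene of osteopontin, a matrix protein and cytokine that macrophages secrete, had a lowest, median and highest level of 5.91, 10.3 and 20.2 GeTMM at 0 h and of 8860.4, 14535 and 20340.5 at 48 h (log2 fold change 10.26, SE 0.61, FDR 2.01e-22). CCL2, the chemokine that draws monocytes into tissue, was at most 1.59 GeTMM in the uncultured libraries and had a lowest, median and highest level of 839.6, 1142 and 4899 at 48 h (log2 fold change 10.13, SE 0.38, FDR 3.97e-32). The groups of both genes were far apart, with the lowest ISF library at 8860.4 and 839.6 GeTMM. GPNMB, a lysosomal glycoprotein of macrophages, rose from 18.4 ± 8.69 to 4147 ± 1460.5 GeTMM (log2 fold change 7.81, SE 0.30, FDR 9.59e-32). APOE, the apolipoprotein with which macrophages export cholesterol, rose from 15.98 ± 13.2 to 2729 ± 1242 (log2 fold change 7.55, SE 0.36, FDR 5.07e-27). PLA2G7, which inactivates platelet-activating factor, went from 1.09 ± 0.470 to 262 ± 62.1 (log2 fold change 6.98, SE 0.22, FDR 2.30e-36), and CTSL, the lysosomal protease cathepsin L, from 0.909 ± 0.433 to 176 ± 38.3 (log2 fold change 6.53, SE 0.31, FDR 3.11e-27). The remaining 6 of the 12 steepest rises were those of CYP1B1, a cytochrome P450 that oxidises sterols and xenobiotics, EEF1A2, a translation elongation factor better known from muscle and nerve, PCOLCE2, an enhancer of procollagen processing, CA12, a membrane carbonic anhydrase, CTSK, the collagen-digesting cathepsin K, and CYP7A1, the enzyme that starts bile acid synthesis in liver. Their log2 fold changes were 6.94 ± 0.46 (SE), 6.50 ± 0.54, 6.19 ± 0.27, 6.09 ± 0.47, 5.66 ± 0.39 and 5.56 ± 0.36 in that order. CTSK was the most abundant of these at 48 h, with 1454 ± 438 GeTMM. Genes near 0 before culture have fold changes that the added 1 GeTMM holds down, so their levels say more than their fold changes.

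The steepest falls were nearly all of red cell genes. HBA2, an alpha globin gene, had a lowest, median and highest level of 985, 4401 and 16652 GeTMM at 0 h and of 5.80, 42.2 and 209.8 at 48 h (log2 fold change -6.99, SE 0.72, FDR 1.39e-12). HBA, annotated as another alpha globin gene, fell from 6322 ± 5203 to 76.3 ± 78.4 (log2 fold change -6.62, SE 0.59, FDR 4.91e-15). The alpha globin copies are near-identical, so reads may have been split between them and each level is uncertain. AHSP, a chaperone of free alpha globin, fell from 374 ± 237 to 2.74 ± 3.76 (log2 fold change -6.87, SE 0.49, FDR 4.14e-19). SLC4A1, the band 3 anion exchanger of the red cell membrane, fell from 197 ± 218 to 1.043 ± 1.70 (log2 fold change -6.06, SE 0.39, FDR 6.66e-21). ALAS2, the erythroid enzyme that starts heme synthesis, CA1, a red cell carbonic anhydrase, YPEL4 and KEL, the Kell blood group antigen, fell as well, with log2 fold changes from -5.78 to -5.18. Steep falls outside the red cell lineage were those of FOSB, an immediate early transcription factor (115 ± 68.9 to 1.93 ± 0.874 GeTMM, log2 fold change -5.21, SE 0.24, FDR 1.23e-27), LTF, the lactoferrin of neutrophil granules (10522 ± 2246 to 372 ± 259, log2 fold change -5.10, SE 1.07, FDR 5.13e-05), and CRISP3, another granule protein (138 ± 119.7 to 2.94 ± 2.73, log2 fold change -5.04, SE 0.59, FDR 6.84e-11). The ISF libraries lay below every 0 h library for each of these genes.

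**Figure D2:**
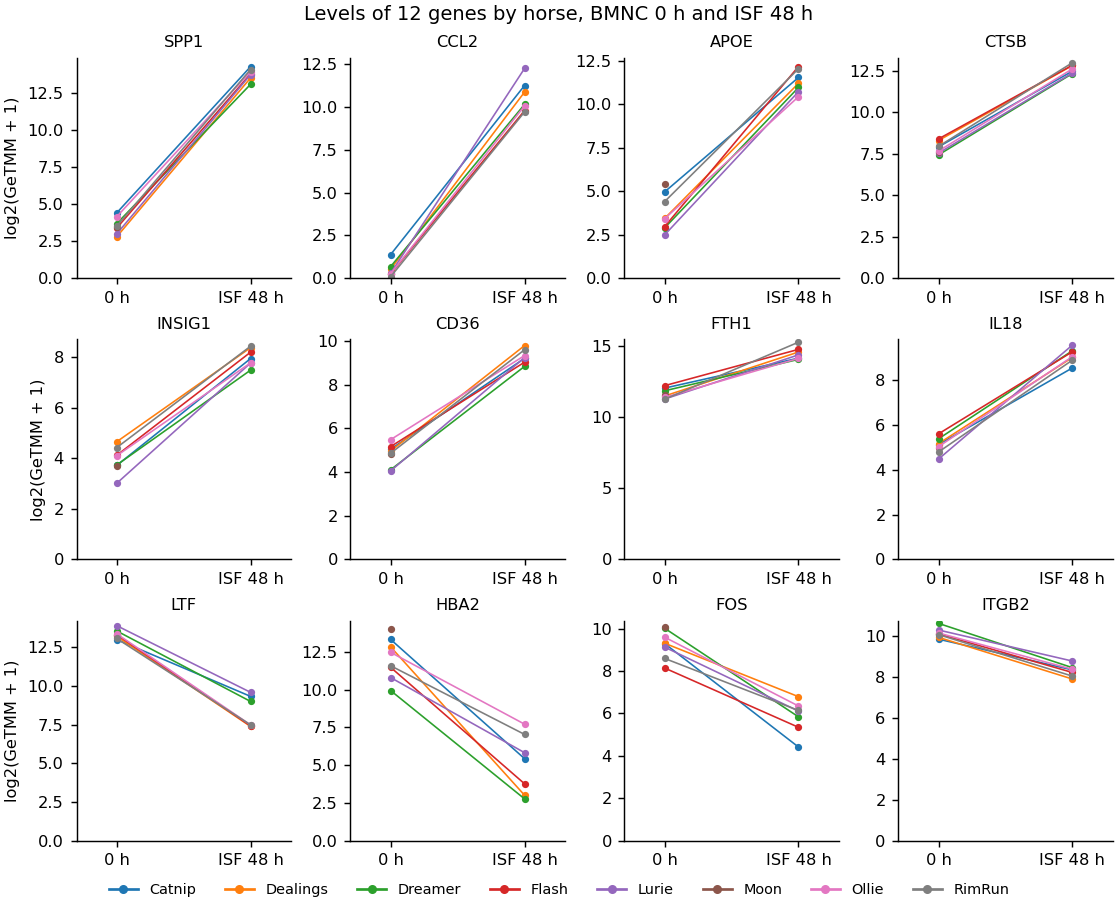
Level of 12 genes in each horse at 0 h and after 48 h in ISF, as log2(GeTMM + 1), with 1 line per horse and a single point for Moon, which has no ISF library at 48 h here. SPP1, CCL2, APOE, CTSB, INSIG1, CD36, FTH1 and IL18 rose in all 7 horses, and LTF, HBA2, FOS and ITGB2 fell in all 7, while the lines of HBA2 spread widely at both times.

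Genes of the macrophage, the cell that mononuclear phagocytes become in tissue, rose as a group. Of 15 markers tested, 12 rose and 2 fell, with a median log2 fold change of 4.54, where 25.3% of all genes rose. The median lay between 4.01 in Ollie and 5.20 in Lurie. CD68, the lysosomal protein used to stain macrophages, had a lowest, median and highest level of 64.2, 82.0 and 99.5 GeTMM at 0 h and 1504, 1887 and 2469.7 at 48 h (log2 fold change 4.54, SE 0.14, FDR 2.30e-36). TREM2, a lipid-sensing receptor of tissue macrophages, rose from 4.57 ± 2.58 to 220.1 ± 66.0 (log2 fold change 5.38, SE 0.27, FDR 3.60e-26), and the fatty acid carriers FABP5 and FABP4 rose from 19.6 ± 3.62 to 737 ± 190.3 and from 17.9 ± 7.40 to 226 ± 195. The 2 markers that fell make complement C1q, which resident macrophages secrete. C1QC fell from 232 ± 99.4 to 57.2 ± 47.6 (log2 fold change -2.15, SE 0.63, FDR 0.00326), in 6 of 7 horses. C1QB went from 129.9 ± 54.5 to 44.0 ± 34.3 (log2 fold change -1.65, SE 0.60, FDR 0.0175), and its FDR was as high as 0.0788 when Dealings or Ollie was left out. VSIG4, a complement receptor of resident macrophages, was not called, with 27.1 ± 11.7 at 0 h and 28.0 ± 15.8 at 48 h. CD5L, a secreted scavenger protein of tissue macrophages, fell from 219 ± 99.1 to 39.2 ± 42.2 (log2 fold change -3.04, SE 0.79, FDR 8.82e-04). Receptors that take up modified lipoproteins, microbes and dying cells mostly rose too, 12 of 15 tested, against 2 that fell. Both lists include MSR1, MRC1, MARCO and CD163, so they are not separate results. MSR1, a scavenger receptor, rose from 4.75 ± 1.56 to 151 ± 95.9 (log2 fold change 4.59, SE 0.32, FDR 1.50e-19), CD36, the fatty acid and oxidised lipoprotein receptor, from 28.5 ± 9.29 to 638 ± 147 (log2 fold change 4.48, SE 0.25, FDR 1.42e-23), and MRC1, the mannose receptor CD206, from 4.598 ± 1.043 to 83.5 ± 51.8 (log2 fold change 3.66, SE 0.41, FDR 1.62e-11). AXL, a receptor for phosphatidylserine on dead cells, went the other way, from 12.4 ± 5.38 to 1.20 ± 0.817 (log2 fold change -2.56, SE 0.39, FDR 1.29e-07). MARCO and CD163, receptors for microbes and for haemoglobin, rose in every horse but unevenly. MARCO reached 199 GeTMM in Catnip and 195 in Dealings, 18.5 to 35.0 in Dreamer, Flash and Lurie and 4.56 and 3.51 in Ollie and RimRun, from at most 1.66 at 0 h. CD163 reached 1138 in Catnip and 1005 in Dealings and 188 and 166 in Ollie and RimRun, from 71.5 to 146 at 0 h.

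The lysosome, where macrophages digest what they engulf, showed one of the broadest rises. Of 38 hydrolase and membrane protein genes tested, 33 rose and 1 fell, with a median of 1.65, which by horse lay between 1.28 and 1.93. Cathepsin B led in amount. CTSB had a lowest, median and highest level of 173, 222 and 338 GeTMM at 0 h and 5223, 6357 and 8231 at 48 h (log2 fold change 4.79, SE 0.19, FDR 1.06e-30). LGMN, an asparaginyl protease, rose from 92.2 ± 26.2 to 2665 ± 598 (log2 fold change 4.86, SE 0.22, FDR 6.44e-28). The single fall was that of TFEB, a transcription factor for lysosomal genes (157 ± 17.7 to 116 ± 27.9, log2 fold change -0.46, SE 0.19, FDR 0.0332), and its FDR rose to 0.418 under rescaling, to 0.156 with voom and to as much as 0.106 without Catnip, Dealings, Dreamer or Lurie. Its relative MITF rose from 2.29 ± 0.737 to 15.7 ± 3.24 (log2 fold change 2.35, SE 0.19, FDR 1.06e-16). The proton pump that acidifies lysosomes rose too, in 13 of 17 subunit genes tested and none that fell, with a median of 1.05. ATP6AP1 rose from 124 ± 17.9 to 522 ± 90.1 (log2 fold change 2.06, SE 0.15, FDR 5.12e-19) and ATP6V1F from 309 ± 59.7 to 1026 ± 289 (log2 fold change 1.71, SE 0.19, FDR 8.01e-12). Osteoclasts use the same pump on bone, and of 10 osteoclast marker genes 6 rose and 2 fell. ATP6V0D2, a pump subunit of osteoclasts and macrophages, rose from 0.173 ± 0.141 to 18.7 ± 11.7 (log2 fold change 3.79, SE 0.73, FDR 1.40e-05), whereas OSCAR, an immunoreceptor of osteoclasts and myeloid cells, fell from 93.5 ± 13.7 to 19.0 ± 5.64 (log2 fold change -2.27, SE 0.33, FDR 2.89e-08).

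Cholesterol synthesis rose almost as a block. Of 26 sterol genes tested, 23 rose and none fell, with a median of 1.02 that lay between 0.93 and 1.57 in the 7 horses. INSIG1, the membrane protein that holds back the sterol-sensing machinery and is itself a sterol-regulated gene, had a lowest, median and highest level of 7.05, 14.2 and 24.2 GeTMM at 0 h and 179, 247 and 347 at 48 h (log2 fold change 4.07, SE 0.34, FDR 3.71e-16), with no overlap between the groups. The enzymes PMVK, CYP51A1 and SQLE rose from 18.8 ± 1.95 to 123 ± 29.5, from 12.5 ± 3.42 to 68.7 ± 27.3 and from 6.36 ± 0.895 to 33.8 ± 23.7 (log2 fold changes 2.62 ± 0.18, 2.34 ± 0.25 and 2.06 ± 0.27, with SE). Uptake, storage and efflux genes rose at the same time, 14 of 18 tested against 1 that fell, with a median of 1.89. Besides APOE and CD36 these include LPL, lipoprotein lipase (0.886 ± 0.160 to 78.8 ± 79.8, log2 fold change 4.96, SE 0.50, FDR 4.82e-13), PLTP, which transfers phospholipid to lipoproteins (12.2 ± 5.58 to 211 ± 110.3, log2 fold change 3.98, SE 0.30, FDR 3.17e-18), NR1H3, the oxysterol receptor LXR alpha (12.1 ± 2.36 to 62.5 ± 17.9, log2 fold change 2.25, SE 0.21, FDR 2.04e-14), and PPARG, a lipid-sensing nuclear receptor (6.90 ± 0.825 to 22.3 ± 5.77, log2 fold change 1.53, SE 0.15, FDR 4.11e-13). The one that fell was NCEH1, which frees cholesterol from its esters (5.49 ± 5.37 to 0.782 ± 0.319, log2 fold change -1.52, SE 0.22, FDR 4.40e-08). Fatty acid synthesis was called about as often as all genes, with 5 of 17 genes higher and 4 lower (29.4% and 23.5%, against 25.3% and 27.4%). Under rescaling, or with the 7 pairs and a term for horse, 8 were higher. ELOVL5, which lengthens polyunsaturated fatty acids, and ME1, which supplies NADPH, rose by 2.33 ± 0.29 and 2.04 ± 0.19, while DGAT1, which makes triglyceride, ACSL1, which activates fatty acids, and SREBF1, the transcription factor of the pathway, changed by -1.68 ± 0.14, -1.32 ± 0.25 and -1.28 ± 0.26 on the log2 scale (SE). Fatty acid oxidation rose in 10 of 19 genes and fell in 1, with a median of 0.41 (15 higher under rescaling). CPT1A, which passes fatty acids to the mitochondrion, rose from 34.5 ± 10.6 to 93.6 ± 23.6 (log2 fold change 1.44, SE 0.27, FDR 6.97e-06) and its muscle form CPT1B fell from 1.43 ± 0.365 to 0.549 ± 0.150 (log2 fold change -0.64, SE 0.10, FDR 1.996e-07).

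Iron storage and antioxidant genes rose while the phagocyte oxidase fell. Of 20 iron and heme genes tested, 11 rose and 3 fell (median 0.73), and of 25 antioxidant genes, which the transcription factor NRF2 is known to regulate, 15 rose and 3 fell (median 0.94). Both lists include FTL, FTH1 and HMOX1. HMOX1, which breaks heme open, rose from 172 ± 13.2 to 836 ± 290.0 (log2 fold change 2.20, SE 0.31, FDR 1.58e-08) and BLVRA, the biliverdin reductase of the next step, from 9.43 ± 0.840 to 76.5 ± 15.00 (log2 fold change 2.87, SE 0.18, FDR 2.58e-21). SLC40A1, ferroportin, the exporter of iron, fell from 149 ± 28.7 to 36.6 ± 15.3 (log2 fold change -2.06, SE 0.49, FDR 3.21e-04). Storage and heme breakdown genes were higher and the exporter gene lower at 48 h than before culture. PRDX1, a peroxide-reducing enzyme, rose from 116 ± 16.1 to 963 ± 286 (log2 fold change 2.99, SE 0.27, FDR 6.70e-15), SRXN1, which repairs it, from 9.12 ± 3.92 to 65.2 ± 12.7 (log2 fold change 2.78, SE 0.22, FDR 4.43e-17), and OSGIN1 from 2.57 ± 0.849 to 23.5 ± 7.76 (log2 fold change 2.74, SE 0.25, FDR 2.03e-14). Of the 3 antioxidant genes that fell, MGST1 and GCLM were no longer called after rescaling (FDR 0.098 and 0.227). They also lost the call when single horses were left out, with FDRs of up to 0.11 and 0.0701 (Flash, Ollie or RimRun for the first, Lurie or Ollie for the second). The oxidase with which phagocytes make superoxide fell in 7 of 8 subunit and partner genes tested (median -0.83, all horses between -0.97 and -0.64). CYBB, its catalytic subunit, had a lowest, median and highest level of 798, 992 and 1184 GeTMM at 0 h and 368, 553 and 576 at 48 h (log2 fold change -0.99, SE 0.22, FDR 1.39e-04), with groups that did not overlap. NCF4 fell from 463 ± 49.95 to 204 ± 41.6 (log2 fold change -1.20, SE 0.21, FDR 1.53e-06) and NCF1 from 699 ± 106 to 366 ± 99.1 (log2 fold change -0.97, SE 0.22, FDR 1.21e-04).

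Red cell genes had the lowest median of the cell type lists. Of 18 erythroid genes tested, 17 fell, with a median of -3.82 and horses from -6.05 (Catnip) to -2.04 (Dreamer). GATA1, the master transcription factor of the lineage, fell from 19.2 ± 18.8 to 0.405 ± 0.358 GeTMM (log2 fold change -3.40, SE 0.25, FDR 1.70e-18), and all ISF libraries were below 1 GeTMM. Uncultured levels differed widely between horses. HBA2 stood at 985 GeTMM in Dreamer and 16652.5 in Moon at 0 h, and at 48 h at 5.80 in Dreamer and 209.8 in Ollie. The 1 erythroid marker that rose, TFRC, is the transferrin receptor, which other dividing and iron-handling cells carry too (81.7 ± 52.3 to 189 ± 38.3, log2 fold change 1.40, SE 0.50, FDR 0.0152). Without Dreamer its FDR was 0.061. Granulocyte precursor genes were lower or not called, 4 of 8 tested falling (median -1.83). LTF and LCN2, proteins of the late, specific granules, fell from 10522 ± 2246 to 372 ± 259 and from 1177 ± 194 to 184 ± 80.7 GeTMM (log2 fold change -2.78, SE 0.77, FDR 0.00171 for LCN2), CEBPE, the transcription factor of that stage, from 268 ± 73.6 to 61.0 ± 34.6 (log2 fold change -2.31, SE 0.69, FDR 0.00383) and MMP9, gelatinase B, from 2099.8 ± 344 to 688 ± 273 (log2 fold change -1.67, SE 0.42, FDR 5.58e-04). MPO and ELANE, genes of the earlier, primary granules, were not called. MPO, myeloperoxidase, had a lowest, median and highest level of 384, 682 and 1099 at 0 h and 221, 724 and 1044 at 48 h (FDR 0.862), and ELANE, neutrophil elastase, stood at 1371 ± 549 and 751 ± 449 (FDR 0.249). With the 2 groups fitted alone ELANE was called lower (FDR 0.0302). ECATH-2, a horse cathelicidin of neutrophil granules, fell from 8269 ± 2524 to 957 ± 1020.5 (log2 fold change -3.93, SE 1.28, FDR 0.00771), from between 5195 and 11888 at 0 h to between 85.5 in RimRun and 2746 in Lurie at 48 h. All 5 eosinophil and mast cell genes tested fell. CCR3, the eotaxin receptor of eosinophils, went from 10.5 ± 3.35 to 0.258 ± 0.211 (log2 fold change -3.14, SE 0.20, FDR 1.79e-21) and EPX, eosinophil peroxidase, from 24.3 ± 25.6 to 0.576 ± 0.919 (log2 fold change -3.42, SE 0.54, FDR 2.58e-07).

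Lymphocyte genes fell by less than red cell and granulocyte precursor genes, by the medians of the lists. Of 22 T and NK cell genes tested, 15 fell and 2 rose (median -0.95, horses -1.31 to -0.74), and of 14 B and plasma cell genes, 12 fell and 1 rose (median -1.10). After rescaling 14 and 9 fell. Without the 0 h library of Ollie and the ISF library of RimRun, 8 B and plasma cell genes fell. CD3G, a chain of the T cell receptor complex, fell from 57.1 ± 15.2 to 16.8 ± 7.13 (log2 fold change -1.77, SE 0.40, FDR 1.70e-04), TBX21, the T-bet factor of Th1 and NK cells, from 13.8 ± 4.29 to 1.33 ± 0.488 (log2 fold change -2.63, SE 0.23, FDR 3.35e-15), and CD8A from 52.4 ± 15.3 to 5.02 ± 1.96 (log2 fold change -3.17, SE 0.51, FDR 3.87e-07). The 2 genes that rose went against the rest of the list, and bulk libraries do not show which cells held them. CD4, which macrophages of several species also carry, rose from 27.8 ± 9.80 to 70.2 ± 36.4 (log2 fold change 1.19, SE 0.32, FDR 0.00138), and CD28, a costimulatory receptor, from 5.25 ± 2.09 to 73.9 ± 37.4 (log2 fold change 3.495, SE 0.38, FDR 7.09e-12) in all 7 horses. CD79A, part of the B cell receptor, fell from 57.9 ± 19.8 to 15.8 ± 8.09 (log2 fold change -1.92, SE 0.45, FDR 2.55e-04) and MZB1, of antibody-secreting cells, from 35.8 ± 20.9 to 8.15 ± 9.04 (log2 fold change -2.46, SE 0.53, FDR 7.83e-05). PRDM1, the plasma cell factor Blimp-1 that macrophages also express, rose from 5.22 ± 1.18 to 9.42 ± 2.17 (log2 fold change 0.74, SE 0.21, FDR 0.00192). Stem, progenitor and megakaryocyte genes fell in 7 of 11, among them CD34 (5.16 ± 1.90 to 1.61 ± 1.09, log2 fold change -1.28, SE 0.25, FDR 1.93e-05) and PROM1, the CD133 antigen (39.5 ± 11.4 to 12.1 ± 5.40, log2 fold change -1.71, SE 0.50, FDR 0.00316). Of 11 dendritic cell genes, 4 fell and 1 rose (3 and 3 after rescaling). CLEC9A, a dead cell receptor of cross-presenting dendritic cells, fell from 1.60 ± 0.869 to 0.153 ± 0.132 (log2 fold change -1.11, SE 0.16, FDR 1.37e-08), while CCR7, the receptor of migrating dendritic cells, rose from 5.07 ± 1.71 to 13.5 ± 6.71 (log2 fold change 1.19, SE 0.33, FDR 0.00160). Of 12 fibroblast or stromal genes, 2 fell and 1 rose, and with the 7 pairs and a term for horse 6 fell. CXCL12, the chemokine of marrow stroma, fell from 15.3 ± 6.78 to 0.131 ± 0.198 (log2 fold change -3.78, SE 0.45, FDR 9.40e-11), and THY1 from the high level of 4191 ± 1015 to 546 ± 295 (log2 fold change -3.09, SE 0.68, FDR 1.18e-04). The 5 endothelial genes tested all fell, though only 2 did after rescaling. TEK, a receptor of angiopoietins, fell from 4.14 ± 1.72 to 0.989 ± 0.271 (log2 fold change -1.32, SE 0.22, FDR 1.01e-06). Of 6 monocyte genes, 2 fell (S100A12 and LYZ) and 1 rose, VCAN, a matrix proteoglycan (92.3 ± 33.9 to 240.4 ± 101.2, log2 fold change 1.32, SE 0.40, FDR 0.00443). CSF1R, the receptor of the macrophage growth factor, was not called (85.4 ± 27.4 and 108 ± 37.0, FDR 0.392).

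CC chemokine genes leaned higher, and CXC and CX3C genes did not. Of 16 CC chemokine and receptor genes tested, 10 rose and 2 fell (median 1.06). CCL11, eotaxin, was listed at 0 in 7 of 8 uncultured libraries and had a lowest, median and highest level of 9.34, 21.8 and 100.1 GeTMM at 48 h (FDR 1.28e-12). CCL8 rose from 4.78 ± 4.95 to 87.2 ± 73.4 (log2 fold change 3.81, SE 0.49, FDR 1.42e-09) and CCL3 from 17.7 ± 6.72 to 178 ± 89.6 (log2 fold change 3.18, SE 0.44, FDR 9.82e-09). CCL5, which T and NK cells make, fell from 109.7 ± 30.7 to 28.7 ± 13.5 (log2 fold change -1.99, SE 0.53, FDR 0.00116). Only 10 CXC and CX3C genes were tested, of which 2 rose and 2 fell (5 fell with the 7 pairs and a term for horse). These are 20% each, against 25.3% higher and 27.4% lower of all genes, and the median was -0.68. CXCL16, a membrane-bound chemokine and scavenger receptor, rose from 157 ± 25.8 to 567 ± 135 (log2 fold change 1.83, SE 0.17, FDR 4.32e-14). CX3CR1, the fractalkine receptor, fell from 3.87 ± 1.015 to 1.56 ± 0.781 (log2 fold change -0.97, SE 0.24, FDR 4.61e-04). CXCL8, the neutrophil attractant, was not called, with a lowest, median and highest level of 42.3, 89.8 and 225 GeTMM at 0 h and 18.7, 51.3 and 129 at 48 h (FDR 0.0712, with FDRs of 0.0288 without RimRun and 0.0482 with the 7 pairs and a term for horse, both lower at 48 h).

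The classical inflammatory cytokines stayed at low levels. IL1B stood at 8.36, 14.9 and 20.2 GeTMM (lowest, median, highest) at 0 h and 9.14, 25.4 and 39.1 at 48 h (FDR 0.123), with overlapping groups and no call. TNF stood at 3.28, 6.65 and 10.1 and then 6.89, 8.84 and 12.8, and was called higher by a narrow margin (log2 fold change 0.56, SE 0.23, FDR 0.0410), with overlapping groups and a rise in 6 of 7 horses. Leaving out Dealings, Flash, Lurie or Ollie ended that call (FDR up to 0.21), as did median-of-ratios scaling (0.0563) and no filter on low values (0.0585). For IL1B the FDR was 0.0295 after rescaling, 0.0468 with voom and 0.0436 without Flash, each time higher at 48 h. IL6 was at most 0.248 GeTMM in any of these libraries. Of 14 IL-1 family and inflammasome genes, 6 rose and 3 fell (8 and 1 after rescaling, 7 and 1 with voom). IL18 had a lowest, median and highest level of 21.3, 32.9 and 47.8 at 0 h and 375, 534 and 763 at 48 h (log2 fold change 4.03, SE 0.28, FDR 2.26e-19), and its soluble antagonist IL18BP rose from 15.3 ± 2.65 to 99.0 ± 65.0 (log2 fold change 2.42, SE 0.52, FDR 7.57e-05). NLRC4, an inflammasome sensor of bacterial flagellin, fell from 122 ± 19.3 to 44.1 ± 23.5 (log2 fold change -1.59, SE 0.48, FDR 0.00387). Among 20 other cytokine and receptor genes, 6 rose and 5 fell (30% and 25%), near the shares of all genes (25.3% and 27.4%). SOCS3, a brake on cytokine signalling, rose from 10.1 ± 9.12 to 148 ± 31.2 (log2 fold change 4.00, SE 0.37, FDR 2.55e-14), IL4R, which receives IL-4 and IL-13, from 126 ± 25.8 to 610.5 ± 106 (log2 fold change 2.28, SE 0.18, FDR 1.18e-16), and the anti-inflammatory IL10 from 0.681 ± 0.417 to 5.64 ± 2.29 (log2 fold change 1.95, SE 0.37, FDR 1.06e-05). IL16, IL27 and IL13RA1 fell, by -1.34 ± 0.20, -1.15 ± 0.29 and -1.06 ± 0.24 on the log2 scale (SE). The TNF superfamily leaned lower, with 10 of 18 that fell and 4 that rose (median -0.55), but 7 and 5 after rescaling. LTB, a lymphocyte ligand, fell from 81.7 ± 18.3 to 26.0 ± 8.40 (log2 fold change -1.64, SE 0.39, FDR 3.34e-04) and CD40LG, of helper T cells, from 5.57 ± 2.06 to 1.39 ± 0.547 (log2 fold change -1.43, SE 0.28, FDR 2.02e-05), while TNFRSF1B and TNFRSF1A, the 2 receptors of TNF, rose from 61.8 ± 14.7 to 189 ± 45.9 (log2 fold change 1.60, SE 0.17, FDR 1.23e-12) and from 129 ± 12.9 to 218 ± 34.1 (log2 fold change 0.75, SE 0.10, FDR 1.13e-08). Of 16 NF-kappaB genes, 4 rose (25%, near the 25.3% of all genes) and 2 fell (none fell after rescaling), and the median was 0.02. RELB and NFKB2, which form the noncanonical dimer, rose from 6.16 ± 1.52 to 30.9 ± 10.1 (log2 fold change 2.12, SE 0.22, FDR 1.28e-12) and from 22.6 ± 3.496 to 51.5 ± 12.2 (log2 fold change 1.14, SE 0.15, FDR 4.36e-09). Of 17 listed Toll-like receptor and LPS sensing genes, 14 were tested, and TLR4 was not among them. Of the 14, 4 rose (28.6%, near the 25.3% of all genes) and none fell (3 fell with the 7 pairs and a term for horse). TLR2, the receptor of bacterial lipoproteins, rose from 20.6 ± 7.22 to 71.2 ± 29.6 (log2 fold change 1.71, SE 0.34, FDR 2.61e-05). Of 8 colony-stimulating factor genes, 1 rose, CSF1, the macrophage growth factor (5.75 ± 1.99 to 43.5 ± 26.0, log2 fold change 2.54, SE 0.58, FDR 1.99e-04), and 4 fell, among them CSF3, which drives granulocyte production (1.48 ± 0.791 to 0.301 ± 0.109, log2 fold change -0.87, SE 0.14, FDR 1.55e-07).

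Interferon-stimulated genes were nearly all uncalled and differed between horses. Of 21 tested, 1 rose and 1 fell, with a median over all horses of 0.04. By horse the median change was 2.86 in Ollie and between -0.87 and -0.13 in the other 6. MX1, an antiviral GTPase, went from 7.46 GeTMM in uncultured cells of Ollie to 172 in ISF. It was already at 271 in Dealings at 0 h and 152 after culture, and the other 5 horses stood at 5.49 to 18.2 in ISF. IFI6 went from 107 to 1276 in Ollie and OAS3 from 4.64 to 149. IFI6 was not called (FDR 0.0827), but it was called higher in 5 of 20 alternatives, with a term for horse in the fit of all libraries (FDR 0.00798, and 0.00468 without the 96 h ISF libraries of Dealings and Dreamer), after rescaling (0.0202), with library weights (0.0440) and with voom (0.0404). The SF culture of Ollie stood between, with 50.1 GeTMM of MX1, 594 of IFI6 and 42.8 of OAS3. The one gene called higher, OAS2 (log2 fold change 1.55, SE 0.57, FDR 0.0186), rose in all 7 horses, but its FDR was as high as 0.147 when Catnip or Ollie was left out. The 0 h library of Ollie is the one with the largest sum of GeTMM, and the part of this in the result was not tested. Of 16 antigen presentation and costimulation genes, 3 rose and 5 fell (2 fell after rescaling, 8 with the 7 pairs and a term for horse). CIITA, the switch of MHC class II genes, fell from 23.1 ± 6.81 to 9.52 ± 2.73 (log2 fold change -1.20, SE 0.24, FDR 2.08e-05) and TAPBP, which loads peptides on MHC class I, from 185 ± 37.9 to 81.6 ± 15.7 (log2 fold change -1.17, SE 0.25, FDR 5.99e-05), whereas CD86, a costimulatory ligand, rose from 32.7 ± 8.18 to 84.2 ± 18.9 (log2 fold change 1.35, SE 0.18, FDR 2.48e-09), together with the lysosomal antigen-processing genes IFI30 and CTSS. Complement genes fell in 6 of 12 and rose in 2, the receptor C3AR1 (1.46 ± 0.522 to 46.6 ± 22.3, log2 fold change 4.14, SE 0.35, FDR 1.09e-15) and C2 (7.94 ± 2.98 to 39.2 ± 22.2, log2 fold change 2.00, SE 0.43, FDR 8.64e-05).

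Tissue-remodelling and lipid mediator genes changed in both directions. Of 14 matrix metalloproteinase and related genes, 6 rose and 3 fell. MMP12, the macrophage elastase, stood at 0.0405 ± 0.0505 GeTMM before culture and had a lowest, median and highest level of 14.2, 39.5 and 86.3 at 48 h (log2 fold change 5.20, SE 0.81, FDR 1.53e-07). MMP14, a membrane-bound collagenase, rose from 1.34 ± 0.612 to 60.02 ± 24.7 (log2 fold change 4.65, SE 0.31, FDR 2.59e-20), and the inhibitor TIMP1 from 23.2 ± 12.9 to 369 ± 200.1 (log2 fold change 3.94, SE 0.38, FDR 1.30e-13). MMP25, a protease of neutrophils, fell from 337 ± 69.7 to 134 ± 36.5 (log2 fold change -1.35, SE 0.36, FDR 0.00137) as MMP9 did. Eicosanoid genes, which make and sense the lipid mediators derived from arachidonic acid, fell in 9 of 16 and rose in 4 (median -0.91). LTA4H, the last enzyme of leukotriene B4 synthesis, had a lowest, median and highest level of 353, 447 and 493.5 at 0 h and 49.3, 75.0 and 107 at 48 h (log2 fold change -2.52, SE 0.27, FDR 6.57e-12), and LTC4S, which makes leukotriene C4, fell from 8.70 ± 4.57 to 0.463 ± 0.409 (log2 fold change -2.59, SE 0.30, FDR 4.71e-11). ALOX5, the first enzyme of both routes, fell from 403 ± 52.1 to 103 ± 31.5 (log2 fold change -2.02, SE 0.23, FDR 2.69e-11). HPGDS, which makes prostaglandin D2, rose from 0.128 ± 0.129 to 3.32 ± 1.63 (log2 fold change 1.86, SE 0.26, FDR 1.14e-08). PTGS2, the inducible cyclooxygenase COX-2, was called lower (5.85 ± 4.30 to 2.16 ± 0.913, log2 fold change -0.93, SE 0.26, FDR 0.00215), but in 5 of 7 horses, and with the 7 pairs and a term for horse its FDR was 0.0583. Growth factors of repair were balanced, 6 of 15 higher and 6 lower (3 lower after rescaling). VEGFB rose from 8.68 ± 2.60 to 103.8 ± 49.0 (log2 fold change 3.38, SE 0.23, FDR 7.36e-20) and TGFB3 from 0.486 ± 0.246 to 14.0 ± 11.6 (log2 fold change 2.90, SE 0.47, FDR 5.26e-07), while HGF, hepatocyte growth factor, fell from 32.3 ± 5.57 to 6.31 ± 2.09 (log2 fold change -2.22, SE 0.28, FDR 4.02e-10) and INHBA, a subunit of activin, from 7.88 ± 2.17 to 2.83 ± 1.83 (log2 fold change -1.32, SE 0.33, FDR 4.73e-04).

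Protein quality control rose widely. Of 31 proteasome genes tested, 26 rose and none fell (median 0.61), of 14 chaperonin and cytosolic chaperone genes 12 rose and 1 fell (median 0.96), and of 28 genes of the endoplasmic reticulum stress response 19 rose and none fell (median 0.99). PSMD12, a regulatory particle subunit, had a lowest, median and highest level of 15.3, 21.9 and 30.8 GeTMM at 0 h and 46.5, 55.8 and 69.0 at 48 h (log2 fold change 1.34, SE 0.12, FDR 3.43e-15). CCT3 and CCT8, subunits of the ring that folds actin and tubulin, rose from 65.9 ± 8.92 to 149 ± 12.5 and from 51.0 ± 7.70 to 109.6 ± 9.12 (log2 fold changes 1.17 ± 0.13 and 1.10 ± 0.13, SE). The single chaperone that fell was HSPA1A, the stress-inducible Hsp70 (22.2 ± 8.18 to 6.18 ± 1.83, log2 fold change -1.65, SE 0.28, FDR 1.05e-06), while its partner HSPH1 rose from 18.2 ± 5.61 to 79.2 ± 21.5 (log2 fold change 2.07, SE 0.18, FDR 1.32e-15). DDIT3, the stress-induced factor CHOP, rose from 85.6 ± 41.7 to 366 ± 167 (log2 fold change 2.10, SE 0.27, FDR 1.20e-09), ATF3 from 9.82 ± 4.45 to 49.5 ± 22.9 (log2 fold change 2.19, SE 0.34, FDR 1.06e-07) and CRELD2, a secreted chaperone, from 32.1 ± 2.45 to 117 ± 23.0 (log2 fold change 1.81, SE 0.22, FDR 3.83e-10).

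Energy metabolism genes did not move as one. Of 21 glycolysis genes, 6 rose and 6 fell (28.6% each), near the shares of all genes (25.3% and 27.4%). HK2 and HK3, the hexokinases that start the pathway in activated cells and in granulocytes, fell from 44.3 ± 12.9 to 8.88 ± 2.99 (log2 fold change -2.23, SE 0.45, FDR 2.45e-05) and from 1066 ± 129.8 to 285 ± 73.7 (log2 fold change -1.93, SE 0.51, FDR 9.98e-04), and SLC16A3, the exporter of lactate, from 281 ± 31.2 to 127 ± 41.3 (log2 fold change -1.20, SE 0.34, FDR 0.00259). In the pentose phosphate pathway, which feeds NADPH to the oxidase, 4 of 6 fell and 1 rose, although only 2 fell after rescaling. TKT, transketolase, had a lowest, median and highest level of 1094, 1391 and 1564 at 0 h and 393, 495 and 711 at 48 h (log2 fold change -1.43, SE 0.16, FDR 1.15e-11). Respiratory chain genes leaned higher, with 14 of 31 in complex I and 13 of 32 in complexes II to V called higher and none lower (medians 0.45 and 0.29). Rescaling raised these counts to 26 and 26. NDUFS8 rose from 105 ± 9.93 to 233 ± 46.2 (log2 fold change 1.13, SE 0.20, FDR 3.55e-06) and CYCS, cytochrome c, from 37.8 ± 10.3 to 89.6 ± 20.6 (log2 fold change 1.23, SE 0.27, FDR 8.38e-05).

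Transcription factors of macrophage development changed in both directions, 13 of 25 tested higher and 7 lower (4 lower with voom). BHLHE40, a repressor of the basic helix-loop-helix family, had a lowest, median and highest level of 6.48, 8.44 and 30.3 at 0 h and 58.3, 87.7 and 135 at 48 h (log2 fold change 2.92, SE 0.29, FDR 1.77e-13). KLF4, a factor of monocyte commitment, fell from 82.7 ± 21.3 to 19.3 ± 6.72 (log2 fold change -2.06, SE 0.26, FDR 8.52e-10), and GFI1, of the granulocyte route, from 44.5 ± 7.87 to 14.5 ± 5.84 (log2 fold change -1.63, SE 0.38, FDR 2.67e-04). Immediate early genes, which cells switch on within minutes of a stimulus, fell in 9 of 19 and rose in 6. FOS had a lowest, median and highest level of 282, 632 and 1094 at 0 h and 20.3, 68.1 and 109.7 at 48 h (log2 fold change -3.42, SE 0.35, FDR 1.15e-12), EGR1 fell from 91.1 ± 46.8 to 22.4 ± 15.1 (log2 fold change -2.07, SE 0.40, FDR 1.61e-05) and KLF2 from 126 ± 29.6 to 33.0 ± 9.01 (log2 fold change -1.91, SE 0.26, FDR 6.91e-09), while IER3 rose from 131 ± 27.9 to 332 ± 53.2 (log2 fold change 1.36, SE 0.21, FDR 1.26e-07) and FOSL1 from 0.160 ± 0.197 to 3.41 ± 1.40 (log2 fold change 1.88, SE 0.30, FDR 2.14e-07). Genes of leukocyte adhesion and migration fell in 16 of 24 and rose in 3 (median -0.95, with 11 lower and 4 higher after rescaling). ITGB2, the beta chain of the leukocyte integrins, had a lowest, median and highest level of 903, 1085 and 1542 at 0 h and 234, 319 and 431 at 48 h (log2 fold change -1.84, SE 0.15, FDR 1.34e-16), and RASGRP2, which switches integrins on, fell from 135 ± 14.97 to 29.8 ± 9.15 (log2 fold change -2.19, SE 0.32, FDR 3.06e-08). The 3 that rose were the integrin ligand ICAM1 (3.90 ± 1.18 to 23.4 ± 9.12, log2 fold change 2.28, SE 0.21, FDR 9.74e-15), the signal transducer VAV1 and the matrix integrin chain ITGB1.

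Cell division genes showed no common direction. Of 25 cell cycle genes, 2 rose and 3 fell, with a median of -0.04 (0.23 after rescaling) that ran from -0.99 in RimRun to 0.62 in Dreamer. E2F1, a factor of entry into DNA synthesis, fell from 14.5 ± 5.41 to 4.21 ± 1.76 (log2 fold change -1.60, SE 0.28, FDR 2.29e-06) and CCNE1, cyclin E, from 12.6 ± 6.26 to 5.44 ± 0.962 (log2 fold change -0.98, SE 0.19, FDR 1.06e-05). Of 19 inhibitors and p53 target genes, 7 rose and 4 fell. CDKN1A, the p21 inhibitor, rose from 4.77 ± 7.86 to 52.7 ± 34.5 (log2 fold change 3.60, SE 0.44, FDR 2.41e-10) and BAX, of the mitochondrial death pathway, from 50.1 ± 4.63 to 147 ± 15.2 (log2 fold change 1.53, SE 0.17, FDR 2.14e-11). CCND3, cyclin D3, fell from 322 ± 37.0 to 93.9 ± 22.5 (log2 fold change -1.79, SE 0.20, FDR 2.48e-11). Of 18 hypoxia response genes, 6 rose and 2 fell (7 and 5 with the 2 groups fitted alone). HILPDA, of lipid droplets, rose from 16.3 ± 4.77 to 50.5 ± 14.2 (log2 fold change 1.57, SE 0.24, FDR 9.17e-08) and BNIP3, of mitochondrial clearance, from 6.74 ± 0.650 to 22.8 ± 3.58 (log2 fold change 1.61, SE 0.37, FDR 2.10e-04), while its relative BNIP3L fell from 309.6 ± 50.2 to 168 ± 21.7 (log2 fold change -0.87, SE 0.18, FDR 3.00e-05). Translation factors and ribosomal proteins moved apart. Of 14 translation control genes, 8 rose and 3 fell (8 and 0 after rescaling or with voom), led by EIF4A1 (256 ± 29.9 to 784 ± 115, log2 fold change 1.61, SE 0.13, FDR 2.29e-16) and the cap-binding EIF4E (39.9 ± 11.5 to 119 ± 12.8, log2 fold change 1.59, SE 0.19, FDR 1.74e-10). Of 67 ribosomal protein genes, 36 fell and 1 rose (median -0.48), and 21 fell after rescaling. RPS19 fell from 2622 ± 495 to 1280.0 ± 213 (log2 fold change -1.03, SE 0.22, FDR 5.70e-05). Ribosomal protein genes have many near-identical copies in a genome, so their levels are uncertain.

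**Figure D3:**
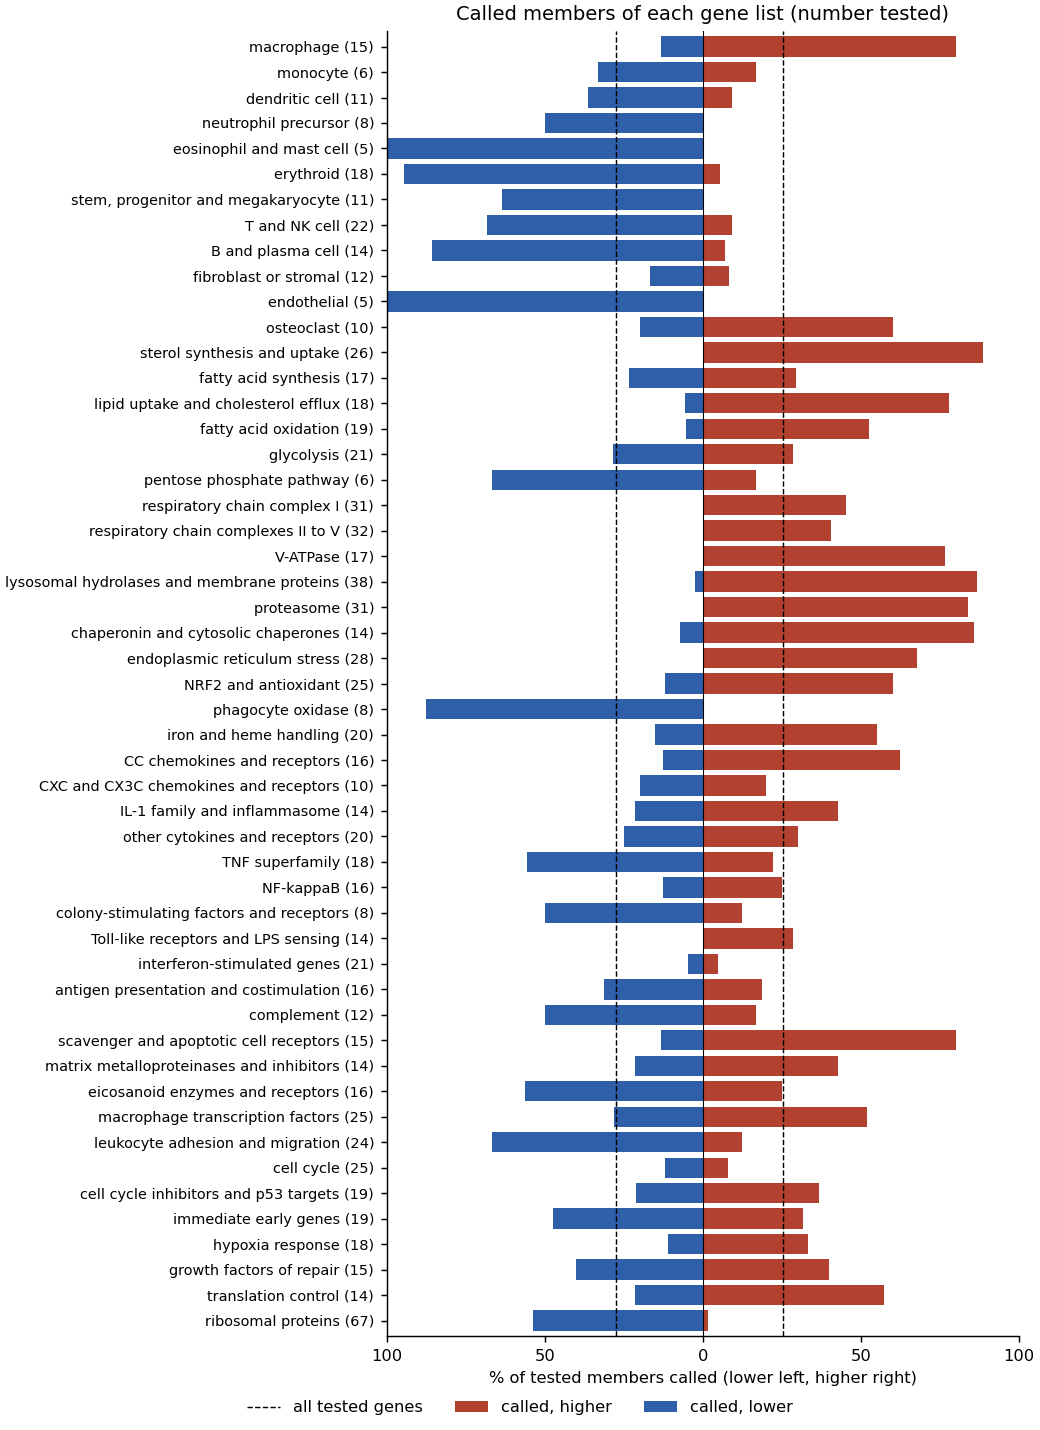
Share of the tested members of each gene list called higher (right, red) or lower (left, blue) from BMNC at 0 h to ISF at 48 h, in percent, with the number tested in brackets. Dashed lines mark the shares over all 14570 genes, 25.3% higher and 27.4% lower. Sterol, lysosomal, chaperone, proteasome, macrophage and scavenger lists reach furthest to the right, and erythroid, B cell, phagocyte oxidase and the small eosinophil and endothelial lists furthest to the left.

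Far fewer genes differed between the fluids at 48 h than between 0 and 48 h. Against SF at 48 h (7 libraries of the same 7 horses), 245 of 14570 genes (1.68%) were called in ISF, 127 higher (0.872%) and 118 lower (0.81%), and 2035 passed an unadjusted p of 0.05. With a term for horse in the fit of all libraries 660 genes were called, and with the 7 pairs alone 1595, so the count depends on how the pairing enters. It also depends on libraries outside the 2 groups, with 728 called when Moon's 6-day SF library was left out. Of the 245 genes, 112 were called higher both over the 48 h and than in SF and 83 lower in both. Both comparisons share the ISF libraries. Another 4 were called lower over time but higher than in SF and 7 the reverse, and 11 higher and 28 lower than in SF were not called over time. SPP1 led these genes. In SF it had a lowest, median and highest level of 342, 1441 and 3564 GeTMM, below the 8860.4 of the lowest ISF library (log2 difference 3.37, SE 0.63, FDR 0.00131). CCL2 stood at 192, 239 and 577 in SF (log2 difference 2.39, SE 0.40, FDR 1.81e-04), CCL11 at 1.61, 2.14 and 7.26 (log2 difference 2.702, SE 0.49, FDR 7.96e-04) and CCL8 at 18.0 ± 8.19 (log2 difference 1.96, SE 0.51, FDR 0.0259). For each of these 4 genes every horse was higher in ISF than in SF. Without Catnip, Dreamer or Lurie the FDR of CCL8 rose to as much as 0.138, and with voom it was 0.0514. DUSP4, which inactivates MAP kinases, stood at 2.35 ± 1.32 in SF and 13.7 ± 3.28 in ISF (log2 difference 2.21, SE 0.46, FDR 0.00329). TIMP1 (log2 difference 2.04, SE 0.39, FDR 0.00185), the cathepsin CTSL (log2 difference 1.45, SE 0.32, FDR 0.00534) and the procollagen enhancer PCOLCE2 (log2 difference 1.40, SE 0.28, FDR 0.00197) were also higher in ISF. Of the EGF family, EREG stood at 3.20 ± 4.38 in SF and 13.9 ± 10.0 in ISF (log2 difference 2.00, SE 0.45, FDR 0.00793), and its FDR rose to as much as 0.0647 without Dreamer or Lurie, to 0.0687 with a pseudocount of 0.1 and to 0.124 with the 2 groups alone.

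OXER1, PADI4, S100A1, CD8A and FGL2 were lower in ISF than in SF and also lower than before culture. OXER1, a receptor for oxidised eicosanoids on granulocytes, stood at 19.9, 24.1 and 34.0 GeTMM (lowest, median, highest) at 0 h, 3.28, 10.9 and 27.3 in SF and 0.625, 1.36 and 3.06 in ISF (log2 difference -2.22, SE 0.29, FDR 2.84e-06). PADI4, which citrullinates histones in neutrophils, stood at 501 ± 114, 106 ± 103 and 19.4 ± 9.76 in the same order (log2 difference -2.19, SE 0.51, FDR 0.00909), with an FDR of 0.0822 without Dreamer and 0.0708 with a pseudocount of 0.1. S100A1, a calcium-binding protein, stood at 25.9 ± 14.3, 15.8 ± 12.6 and 1.84 ± 1.09 (log2 difference -2.22, SE 0.57, FDR 0.0250). CD8A stood at 34.2 ± 37.5 in SF (log2 difference -2.13, SE 0.53, FDR 0.0188), where Flash had the highest value, 117. FGL2, a prothrombinase and immunoregulatory protein of monocytes and T cells, stood at 393 ± 95.1, 369 ± 201 and 106 ± 47.7 (log2 difference -1.77, SE 0.46, FDR 0.0259). The calls of S100A1, CD8A and FGL2 were each lost when any of 5 single horses was left out, with FDRs of up to 0.12, 0.087 and 0.171, and with voom, with FDRs of 0.349, 0.232 and 0.0576. That of CD8A was also lost with a pseudocount of 0.1 (FDR 0.0734) and that of FGL2 after rescaling (0.0613). IGF1, insulin-like growth factor 1, was not called over the 48 h in ISF (0.504 ± 0.396 and 1.74 ± 1.33) and stood at 1.70, 25.0 and 44.9 in SF, above its own ISF value in all 7 horses (log2 difference -2.89, SE 0.66, FDR 0.00853). The FDR between the fluids was 0.0569 without Lurie and 0.136 with voom, and that of the change over time was 0.0322, higher at 48 h, when the 2 groups were fitted alone. VCAM1, an adhesion molecule that macrophages of marrow also carry, went the other way from its course over time. It stood at 80.8 ± 35.7 at 0 h, 50.3 ± 65.4 in ISF and 6.29 ± 6.30 in SF (log2 difference 2.40, SE 0.59, FDR 0.0165 between the fluids). The difference between the fluids lost its call without Dealings or Dreamer (FDR up to 0.126), and the change over time (log2 fold change -1.35, SE 0.57, FDR 0.0406) lost it without Dealings, Dreamer, Lurie, Moon, Ollie or RimRun (FDR up to 0.242, and 0.138 with the 7 pairs and a term for horse). Of the 15 macrophage markers, SPP1 alone was called between the fluids in the limma fit without a horse term. With a term for horse in the fit of all libraries 4 were called, SPP1, FABP4 (log2 difference 2.45, FDR 0.00246), FABP5 (0.74, FDR 0.0355) and VSIG4 (-1.27, FDR 0.0486), and with the 7 pairs alone TREM2 (0.53, FDR 0.0492) and LPL (1.23, FDR 0.0236) as well. GPNMB stood at 5565 ± 2115 in SF (log2 difference -0.42, SE 0.31, FDR 0.587), APOE at 1749.8 ± 499 (log2 difference 0.57, SE 0.37, FDR 0.521) and CD68 at 1927 ± 615 (log2 difference 0.03, SE 0.15, FDR 0.963). No gene of the sterol, V-ATPase, proteasome, erythroid or phagocyte oxidase lists was called between the fluids in the limma fit without a horse term, and 3, 0, 8, 2 and 0 of them passed an unadjusted p of 0.05. With a term for horse 3 proteasome genes were called, and 2 with voom, but none of the other 4 lists by either. Over all 14570 genes, 245 were called without a horse term, 660 with it and 150 with voom, and 2035 passed the unadjusted p. List members were not counted in the fit of the 7 pairs alone, which called 1595 genes. Other lists differed more. Of 14 chaperone genes 1 was called without a horse term, 6 with it and 3 with voom, and 12 passed an unadjusted p of 0.05 in the limma fit. For 16 CC chemokine and receptor genes these counts were 3, 6, 3 and 8, and for 15 growth factors 3, 5, 2 and 6. Of 28 endoplasmic reticulum stress genes none was called without a horse term, but 10 passed the unadjusted p.

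**Figure D4:**
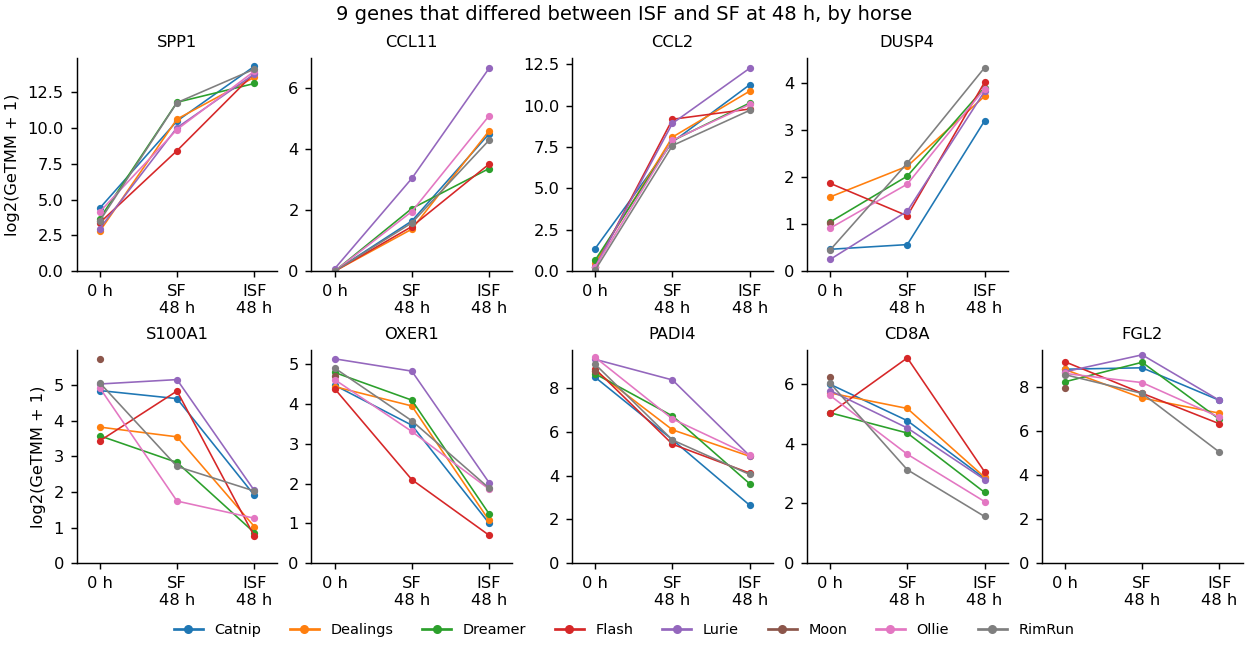
Level of 9 genes in each horse before culture, after 48 h in SF and after 48 h in ISF, as log2(GeTMM + 1), with 1 line per horse. Among genes of at least 5 GeTMM that were called both over time and between the fluids and moved the same way in every horse, the upper row holds 4 of those with the largest excess in ISF over SF and the lower row the 5 with the largest deficit. In each horse the ISF point lies beyond the SF point.

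How far a horse's cells moved was similar between horses. The RMS change over all 14570 genes from 0 to 48 h in ISF was 1.07 ± 0.0763 on the log2 scale (n = 7 horses), from 0.967 in Lurie to 1.19 in RimRun. The spread between horses was as wide before as after, with a median SD per gene of 0.255 at 0 h and 0.257 in ISF over the same 7 horses. The change in SF was 0.964 ± 0.113 and lower than in ISF in 5 of 7 horses, by 0.104 ± 0.0956, which the exact sign-flip permutation test did not separate from 0 (two-sided p = 0.0625, adjusted p = 0.0625). The next 48 h in ISF brought a smaller change in every horse as labelled, 0.633 ± 0.122, which was 0.436 ± 0.162 less (exact permutation p = 0.016, the smallest 7 horses allow, adjusted p = 0.0208). At 96 h in ISF, 2 libraries went against their labels. Over the 200 genes that differ between horses, the library labelled Dealings correlated at r = 0.913 with the mean of Dreamer's libraries at other times or in SF and at -0.139 with that of its own horse, and the library labelled Dreamer at 0.907 with that of Dealings and at -0.097 with its own. Their labels may have been exchanged, so the changes from 48 to 96 h given for these horses may each span 2 animals. Without this pair of horses the difference was 0.4928 in the same direction in all 5, where the smallest possible p is larger (adjusted p = 0.0833). Among called genes with a symbol and a mean of at least 5 GeTMM in either group, those whose change differed most between horses were HBA2, SLC4A1, MARCO, CD5L, VCAM1 and ECATH-2 from above, THBS1, thrombospondin 1, and EDNRB, an endothelin receptor. EDNRB rose from 0.470 ± 0.248 to 85.9 GeTMM in Catnip, 6.21 to 24.6 in Dealings, Dreamer, Flash and Lurie, 0.955 in Ollie and 2.14 in RimRun (log2 fold change 3.03, SE 0.83, FDR 0.00171). THBS1 was lower at 48 h in 6 horses and higher in Lurie, with 46.9 and then 64.8 GeTMM (log2 fold change -1.99, SE 0.60, FDR 0.00386).

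**Figure D5:**
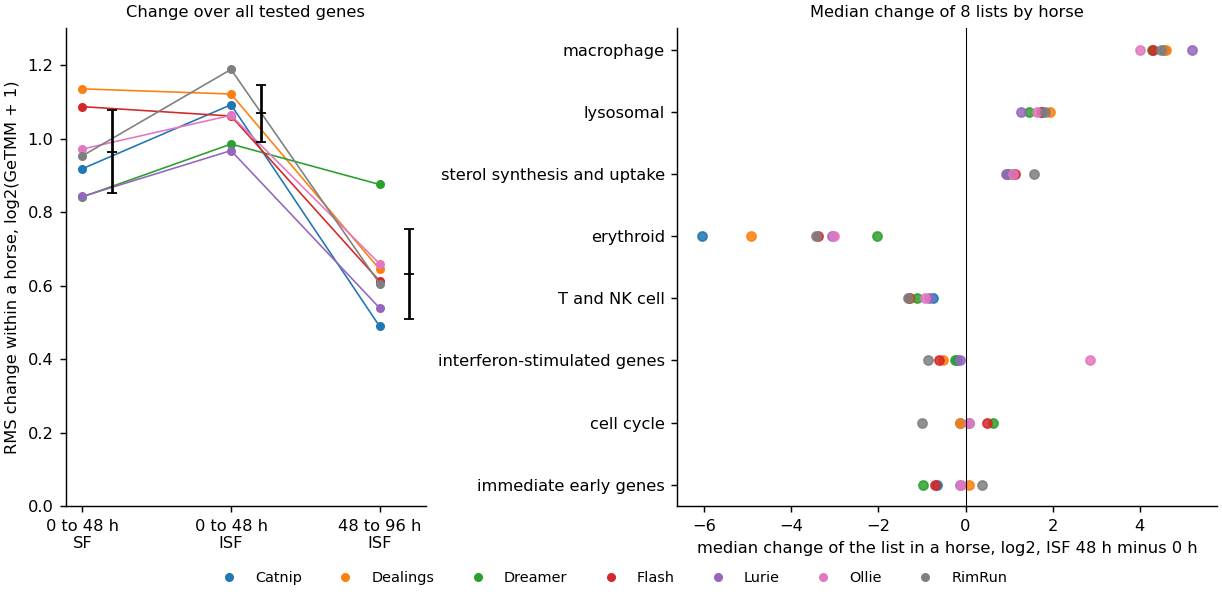
Left, RMS change over all tested genes within each horse, on the log2(GeTMM + 1) scale, for 0 to 48 h in SF, 0 to 48 h in ISF and 48 to 96 h in ISF, with the mean and SD of 7 horses as black bars. Right, the median log2 change of 8 gene lists in each horse from 0 h to ISF at 48 h. Macrophage, lysosomal and sterol lists are above 0 and erythroid and T and NK cell lists below 0 in all 7 horses, and Ollie stands alone at 2.86 in interferon-stimulated genes. The 48 to 96 h points of Dealings and Dreamer rest on libraries whose labels are in doubt.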

How the data were processed

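RNA of uncultured BMNC and of BMNC cultured in synovial fluid was sequenced as stranded paired-end TruSeq libraries on a NovaSeq. Per the labels and the study's methods, the authors trimmed reads with TrimGalore, aligned and counted them per gene with STAR 2.7.2a on EquCab 3.0 and deposited GeTMM, an RPKM-like unit that divides counts by gene length and scales libraries with the TMM factors of edgeR. Of 30371 entries, 24065 were above 0 and 14570 that reached 0.5 GeTMM in 7 or more libraries were tested. Of the tested entries, 2643 have no symbol of their own. limma 3.58.1 (R 4.3.3, trended variance) was fitted to log2(GeTMM + 1) of all 68 libraries in 9 groups without a term for horse, with Benjamini-Hochberg adjusted p-values (FDR) called under 0.05. Fold changes are on that scale and understate the change of genes near 0. Whole reads, with gene lengths, were recovered from the steps between the values (tolerance 0.02 reads), gave whole reads for 100% of genes and served for the depths and for limma's voom. PCR copies are counted as reads, and precision at a given depth covers counting error only. Values within horses were compared with exact sign-flip permutation tests, adjusted over 4 tests.

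Horse names in the labels pair the libraries of 1 animal. After removing group means, the ISF and 0 h libraries of a horse correlated over genes at r = 0.0599 to 0.337. For Ollie (0.0599) and RimRun (0.108) the 0 h library of another horse correlated more, at up to 0.198 and 0.134. The ISF and SF libraries of a horse at 48 h correlated at 0.407 to 0.563. Fits with a term for horse were alternatives. The fit was tested on simulated data for the change from 0 to 48 h in ISF, with 200 of 14570 genes changed. It recovered 86% at a log2 fold change of 1 and 99% at 2, and 5.61% of calls were false. The simulated noise was normal and independent, with no effect of horse, and changed genes were drawn only from those with a mean log2 level above 2. In the data 52.7% of genes were called and horses repeat, so these rates check the fit's working and do not give its error rates there. Named genes are the 12 highest and 12 lowest fold changes with a mean of at least 5 GeTMM and 1 direction in all 7 horses, the 4 steepest members of each list with up to 3 that moved against it, the 5 highest and 5 lowest between fluids among genes called in both comparisons in 1 direction in every horse, the 8 that varied most between horses, the most abundant genes and those whose share changed most, all among genes with a symbol held by 1 entry. Further members complete a role, and some genes are not reported here. The lists, members and tests were chosen with earlier results of these data known. Some genes belong to more than 1 list, such as APOE, LPL and CD36. Counts of different lists are therefore not independent. Leaving out the libraries that stood apart, and Dealings and Dreamer at 96 h, was chosen after seeing the data. Labels do not say that wells or libraries of a horse were repeated. The limma p-values rest on the spread within groups, pooled over 68 libraries of 8 horses. Without a term for horse they take libraries of 1 horse as independent, which the correlations within horses show they are not. Only the exact permutation tests rest on the spread of changes between horses alone.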

Additional observations from a re-analysis of the deposited data

Results flagged for a closer look

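Of 524 sets of values tested for a sample far from the rest (Dixon's test on the log2 scale for genes), 40 (7.63%) held one, where chance gives about 1 in 20. In uncultured BMNC the library of Dealings stood apart in interferon genes, with 441.3 GeTMM of IFI6 (others 74.3 to 153), 270.5 of MX1 (6.24 to 23.7), 26.79 of OAS2 (others up to 4.88) and 0.3458% of all GeTMM in the whole list (0.0798% to 0.138%), and also in C2, with 15.02 (5.06 to 7.87). The uncultured library of Flash was highest in CDKN1A (24.08, others 0.783 to 3.17), THBS1 (230.6, others 39.2 to 64.3), BHLHE40 (30.35, others 6.48 to 13.3), CA12 (9.765, others 1.35 to 3.45), TNFRSF1B (96.08, others 48.7 to 62.5) and FOSL1 (0.5836, others up to 0.241). The uncultured library of Ollie had the largest GeTMM sum, 1458340, and 51.12% of it in the 100 highest genes (39.3% to 43.6% in the others). It was highest in MGST1 (1619), CYCS (62.06), EREG (0.4328) and the unnamed entry ENSECAG00000010598 (66260.2), and lowest in CTSK (14.79). It was also lowest in the shares of the lists of fatty acid synthesis (0.05088%), the TNF superfamily (0.03522%), colony-stimulating factors and receptors (0.03068%) and macrophage transcription factors (0.1197%). Single values stood apart in Lurie at 0 h for BLVRA (7.695, others 9.13 to 10.2) and CCL11 (0.05598, others 0), in Catnip at 0 h for CCL2 (1.592, others up to 0.591) and in Dreamer at 0 h for MRC1 (2.454, others 3.88 to 5.60).

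After 48 h in ISF the library of RimRun stood apart most often. It lay at an RMS distance of 0.5924 from the others and held 37.09% of its GeTMM in the 100 highest genes (31.9% to 34.1%). It was highest in SQLE (86.19, others 20.4 to 33.6), CYP51A1 (127.9, others 49.5 to 73.6), ATP6V1F (1625.9, others 779.5 to 1059) and TNFRSF1B (286.4, others 145 to 193). It was lowest in E2F1 (0.8585, others 3.07 to 6.01), CIITA (3.862, others 9.03 to 12.3) and the shares of the cell cycle (0.06899%) and hypoxia (0.1127%) lists. TIMP1 was highest in Lurie (801.0, others 218 to 379), EPX in Catnip (2.648, others 0.135 to 0.424) with the eosinophil and mast cell share (0.0005449%), and the antigen presentation share in Dealings (1.823%, others 1.21% to 1.43%).

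The change from 0 h differed between the fluids by limma's test of the difference, in log2 units of ISF minus SF at 48 h, for SPP1 (3.37), CCL11 (2.702), VCAM1 (2.40), CCL2 (2.39), DUSP4 (2.21), TIMP1 (2.04), EREG (2.00), CCL8 (1.96), CTSL (1.45) and PCOLCE2 (1.40). It was lower in ISF for IGF1 (-2.89), S100A1 (-2.22), OXER1 (-2.22), PADI4 (-2.19), CD8A (-2.13) and FGL2 (-1.77). BHLHE40 (1.07, FDR 0.0397), FOSL1 (1.08, FDR 0.0474) and IL4R (0.669, FDR 0.0494) passed closely, and each lost the call when any of at least 6 single horses was left out, with FDRs of up to 0.156, 0.217 and 0.244.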

How the results depend on the processing

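The count of 7675 genes called between 0 h and 48 h in ISF stayed within 1.5 times under all 20 alternatives, from 7002 without RimRun to 9072 with library weights. With libraries rescaled to the same sum, 2578 genes were called lower in place of 3989, and the share of calls that were higher was 65.7%. A term for horse (replicate block) gave 8271 calls, and 8257 with the 7 pairs alone. The count between ISF and SF, 245, was less stable. It was 660 with the replicate block in the fit of all libraries (306 higher, 354 lower) and 1595 with the block and the 7 pairs alone (709 and 886), 2233 with library weights (1009 and 1224), 728 when Moon's 6-day SF library was left out (319 and 409), 150 with voom on recovered reads (44 lower), and it had 71 lower with a pseudocount of 0.1, 74 lower after rescaling and 230 higher with the 2 groups alone. Leaving out each horse in turn gave 75 (Dreamer) to 721 (Moon), with 51 to 325 higher and 24 to 396 lower. Moon's 6-day SF library is in neither group compared but enters the estimate of the spread that all groups share. It had a GeTMM sum of 2321940, with 817795 to 1458342 in the other libraries. Its library weight was the lowest, 0.0304, and the next lowest was 0.4199. The cause of the differing counts was not tested. All 245 genes were also called with the block in the fit of all libraries and 226 with the pairs alone. Without the 96 h ISF libraries of Dealings and Dreamer, whose labels are in doubt, the block in the fit of all libraries gave 8261 calls from 0 h and 684 between the fluids (309 and 375). Beyond the values given, the block changed no other call of a named gene over the 48 h and ended none between the fluids. Without Dealings and Dreamer the difference between the first and the next 48 h was 0.4928 (adjusted p = 0.0833, 5 horses), and after rescaling the loss of genes at 1 GeTMM was -66.86 (adjusted p = 0.719).

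Over all named genes and alternatives, values for the change from 0 h kept direction and side of the threshold 4074 times, lost the call 44 times, gained it 12 times and changed sign 10 times. The sign changes were all in uncalled genes, MPO (-0.165, and 0.110 rescaled, with -0.329 to 0.053 when single horses were left out), VSIG4 (-0.077, and 0.186 rescaled, 0.047 with voom, with -0.352 to 0.261 when single horses were left out), MX1 (0.367, and -0.025 with library weights, from -0.277 without Ollie to 0.693 without RimRun) and OAS3 (0.654, and from -0.009 without Ollie to 0.956 without Flash). For ISF against SF they kept it 309 times and lost the call 71 times. Depth limits genes near 0, where 1 read on a gene of 1 kilobase is worth up to 0.0792 GeTMM. A search of promoters for motifs was planned and not run, as no sequence was used here.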
